A study of Homo sapiens with 6 samples.

Results

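The genes described here are the mouse genes of the oxygen-sensing pathway that sets the activity of the hypoxia-inducible factors (HIF): the alpha subunits Hif1a, Epas1 and Hif3a, the beta subunit Arnt, the ubiquitin ligase subunit Vhl, the prolyl hydroxylases Egln1, Egln2 and Egln3, and the asparaginyl hydroxylase Hif1an. They were chosen by Ensembl ID for their role in the pathway, with earlier results of these data known. All 9 were found among the 77134 rows of the deposited count table. Of these 9, 8 passed the filter on low counts, among 12637 genes tested. The table gives IDs only, so the names are those of the gene list that chose the members.

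The libraries came from 3 tumours with HIF1A-AS3 overexpression and 3 vector control tumours, all subcutaneous xenografts of A549, a human lung adenocarcinoma line, grown in athymic BALB/c nude mice. Cells of the overexpression group carried the lentiviral construct pLV-CMV-HIF1A-AS3-EGFP-Neo and those of the control group pLV-CMV-EGFP-Neo, both as stably infected lines, so all tumours carried EGFP, Neo and a viral CMV promoter. No age or sex is stated in the labels, nor whether each tumour grew in its own mouse, so the p-values cover differences among these tumours only, which may be technical.

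HIF1A-AS3 is a human long non-coding RNA transcribed from the strand opposite to HIF1A. In the RefSeq annotation of GRCh38.p14 HIF1A lies on the plus strand of chromosome 14 from 61695513 to 61748258, and HIF1A-AS3 on the minus strand from 61715558 to 61751097, so that the gene bodies share 32701 bases. All 77134 rows of the table are mouse gene IDs. The overexpressed RNA was therefore not analysed here and could not serve to check the labels, and the values below describe RNA of host cells together with whatever A549 RNA was assigned to the mouse genes. How much A549 RNA they include was not tested. In whole tumours, fewer cells that express a gene and less of its RNA per cell cannot be told apart.

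A HIF factor is a pair of an alpha and a beta subunit that binds DNA and switches on genes for glycolysis, blood vessel growth and survival. In the presence of oxygen the prolyl hydroxylases modify the alpha subunit, the VHL protein recognises the modified form, and the alpha subunit is ubiquitinated and degraded. The asparaginyl hydroxylase, known as factor inhibiting HIF, blocks the binding of coactivators to the alpha subunit. Much of the control of HIF-1α is thus exerted on the protein, which these RNA data do not measure. EGLN3, and to a lesser degree EGLN1, are themselves well-known targets of HIF. The study's title ties HIF1A-AS3 to HIF-1α in the tumour cells, and the comparison below asks how the same pathway stood on the mouse genes of tumours with and without the overexpressed RNA.

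No member passed the threshold between the groups. The member with the largest difference was Egln3, which averaged 99.9 ± 28.3 CPM in overexpression tumours and 48.9 ± 7.75 CPM in controls (SD, n = 3 each; CPM, counts per 1000000 counts of the genes tested, with libraries scaled by TMM). After TMM scaling, Vhl was higher in all 3 overexpression tumours than in any control by a smaller amount. By library totals alone, overexpression tumour 1 lay below all controls for Vhl. With TMM scaling, 6.79% of all genes tested had overexpression values all above the controls. Hif1a, Egln1 and Egln2 had nearly equal means in both groups, while Epas1, Arnt and Hif1an were low in overexpression tumours 1 and 3 and not in tumour 2. Hif3a was at or near 0 in every tumour. In edgeR's quasi-likelihood test with Benjamini-Hochberg adjustment below 0.05, 2 of all genes tested were called, a background of 0.0158%, and 0 of the 8 members tested. All 8 members had counts above 0 in every library. Among all genes of that kind the smallest edgeR adjusted p was 0.20, so none of them was called. At an unadjusted p below 0.05 in the same test, where the background was 3.58% higher and 2.71% lower, 2 members were higher (Egln3 and Vhl) and 0 were lower. DESeq2 on the same genes called 28 genes, a background of 0.222%, and 0 members, and limma-voom also called 0 members. The median log2 fold change was -0.045 over the 8 members and 0.0065 over all genes tested.

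**Figure D1:**
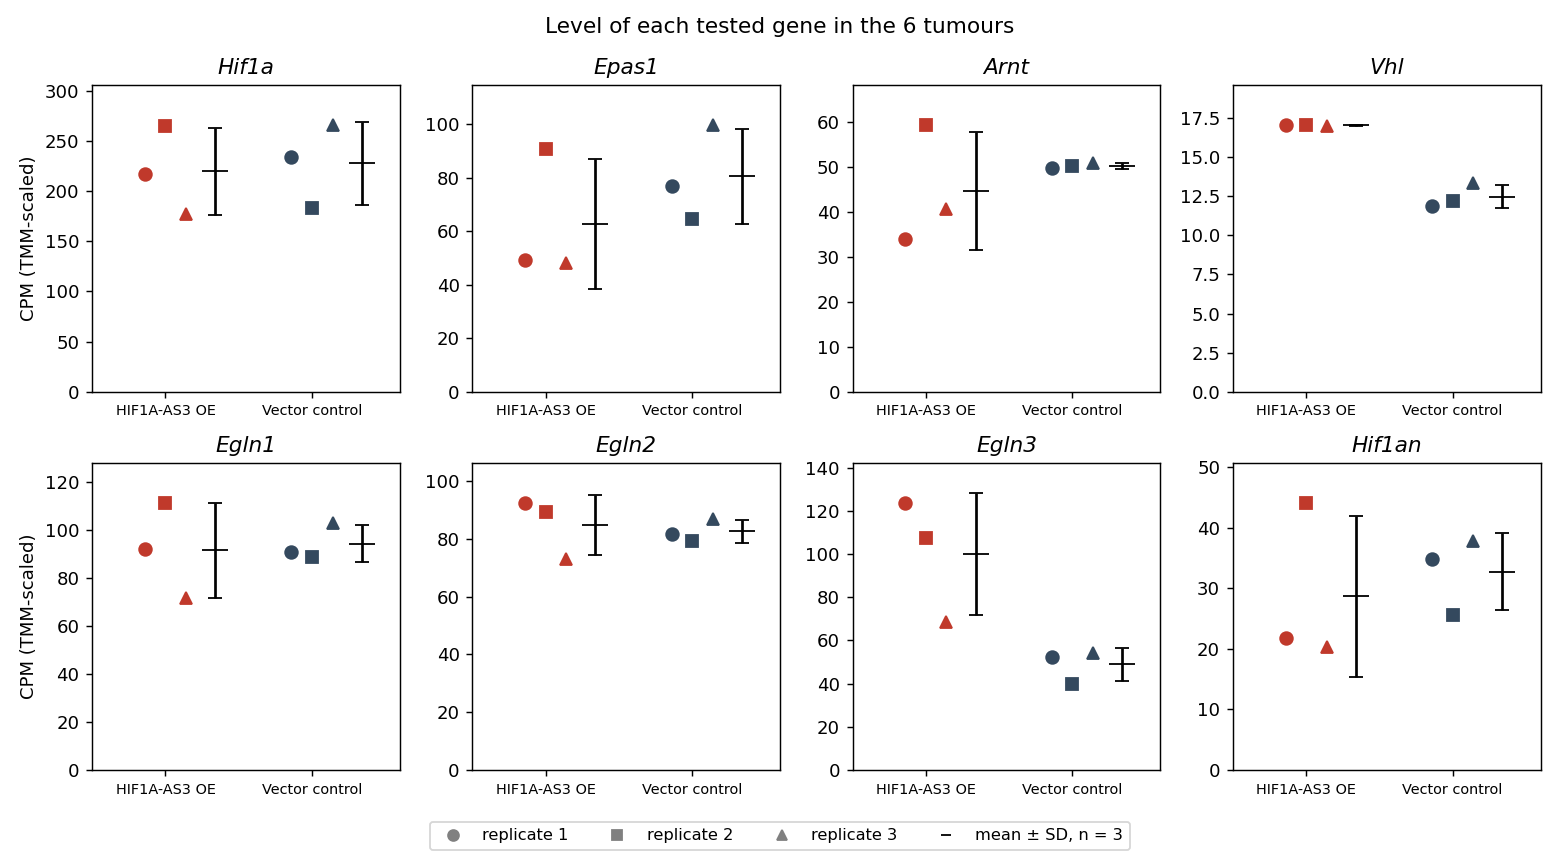
Level of each tested gene (CPM, linear axis from 0) in HIF1A-AS3 overexpression tumours (red, left) and vector control tumours (dark, right), 1 point per tumour, with the mean and SD of 3 tumours beside the points. The groups lie apart for Egln3 and Vhl and overlap for the other genes.

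The libraries held 4272525 to 4769157 estimated counts in overexpression tumours and 4167784 to 4262778 in controls. A count of 0 in such a library allows 3 counts, or 0.632 to 0.852 CPM, by counting error alone. Overexpression tumour 1 stood apart: its TMM factor was 0.742, against 1.02 for the other overexpression tumours and 1.07 to 1.10 for controls. Its counts differed from those of every other library by 64.9 to 89.2 times the sampling variance per gene. Overexpression tumours 2 and 3 each lay nearer to the controls than to their own group by this measure. Tumour 2 differed from the controls by 7.65 to 16.0 times and tumour 3 by 16.3 to 27.5 times, while they differed from each other by 28.9 times. The controls differed from each other by 3.89 to 13.0 times. For Epas1, Arnt, Egln3 and Hif1an, values with 1 library left out are given beside the difference. Hif1a, Egln1 and Egln2 changed sign when some libraries were left out, and their ranges are given in the closing section.

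Hif1a (ENSMUSG00000021109) encodes HIF-1α, the alpha subunit found in most cell types. Its level was 217, 265 and 178 CPM in overexpression tumours 1, 2 and 3, against 234, 183 and 266 CPM in controls 1, 2 and 3. The groups overlapped along nearly their whole range, with the lowest value in overexpression tumour 3 and the highest in control 3. The log2 fold change was -0.051 ± 0.22 (standard error), at an edgeR adjusted p of 0.96. Its 95% interval ran from 0.674-fold to 1.38-fold, so a larger difference in either direction lay outside it.

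Epas1 (ENSMUSG00000024140) encodes HIF-2α, an alpha subunit known for its expression in endothelial cells among other types. It measured 49.1, 90.6 and 48.1 CPM in overexpression tumours 1, 2 and 3, against 77.0, 64.7 and 99.7 CPM in controls 1, 2 and 3. Overexpression tumours 1 and 3 lay below every control, and overexpression tumour 2 lay between controls 1 and 3. With all libraries the log2 fold change was -0.36 ± 0.29 (standard error), the 95% interval ran from 0.486-fold to 1.25-fold, and the edgeR adjusted p was 0.77. The value depended on single libraries: it was -0.72 without overexpression tumour 2 (edgeR adjusted p 0.15), -0.25 without overexpression tumour 1, -0.21 without overexpression tumour 3 and -0.17 without control 3. Markers of endothelial and other host cells could not be read by name here, so their levels cannot be set beside these values.

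Hif3a (ENSMUSG00000004328), whose splice forms include an inhibitor of HIF signalling in mice, had 2, 1 and 0 estimated counts in overexpression tumours 1, 2 and 3 and 0 in all 3 controls. All of these lie at or below the 3 counts that a count of 0 allows, so no fold is given and no difference was detectable at this depth. Of the 3 alpha subunits, the data thus give levels for Hif1a and Epas1 only.

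Arnt (ENSMUSG00000015522) encodes HIF-1β, the beta subunit that pairs with the alpha subunits and is not itself degraded in oxygen. It was 34.1, 59.4 and 40.7 CPM in overexpression tumours 1, 2 and 3, against 49.7, 50.2 and 50.9 CPM in controls 1, 2 and 3. The controls lay closer together (a coefficient of variation of 1.19%) than the counting error of any 1 of those libraries, 6.50% to 6.71%. The overexpression tumours lay on both sides of the controls, with tumours 1 and 3 below and tumour 2 above. The log2 fold change was -0.17 ± 0.23 (standard error), at an edgeR adjusted p of 0.86. It was -0.42 without overexpression tumour 2 (edgeR adjusted p 0.22), -0.038 without overexpression tumour 1 and -0.11 without overexpression tumour 3.

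Vhl (ENSMUSG00000033933) encodes the subunit of a ubiquitin ligase that recognises hydroxylated HIF alpha. The estimated counts were 60, 81 and 74 in overexpression tumours 1, 2 and 3, against 55, 54 and 62 in controls 1, 2 and 3. After TMM scaling these became 17.0, 17.1 and 17.0 CPM in overexpression tumours, against 11.9, 12.2 and 13.3 CPM in controls, and the groups did not overlap. The overexpression values lay closer together (a coefficient of variation of 0.145%) than the counting error of any 1 of those libraries, 11.1% to 12.9%. The log2 fold change was 0.45 ± 0.19 (standard error), with a 95% interval from 1.01-fold to 1.85-fold. In edgeR the unadjusted p was 0.045 and the adjusted p 0.70. The separation rested on the scaling of overexpression tumour 1. Scaled by library totals alone, Vhl was 12.6, 17.4 and 17.3 CPM in overexpression tumours and 13.0, 13.0 and 14.5 CPM in controls, so that tumour 1 lay below all controls, and the log2 fold change was 0.22. Library totals moved the median of all genes tested by -0.22, so that relative to this median Vhl differed by about the same amount under both scalings.

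Egln1 (ENSMUSG00000031987) encodes PHD2, the prolyl hydroxylase that does most of the work in well-oxygenated cells. It stood at 92.3, 111 and 71.5 CPM in overexpression tumours 1, 2 and 3, against 90.8, 88.9 and 103 CPM in controls 1, 2 and 3. The overexpression values enclosed all control values. The log2 fold change was -0.040 ± 0.20 (standard error), at an edgeR adjusted p of 0.97, and the 95% interval ran from 0.706-fold to 1.34-fold.

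Egln2 (ENSMUSG00000058709) encodes PHD1, a related prolyl hydroxylase. It was 92.3, 89.4 and 72.9 CPM in overexpression tumours 1, 2 and 3, against 81.7, 79.2 and 87.0 CPM in controls 1, 2 and 3. Overexpression tumours 1 and 2 lay above the controls and tumour 3 below them. The log2 fold change was 0.038 ± 0.16 (standard error), at an edgeR adjusted p of 0.96. Its 95% interval, from 0.789-fold to 1.34-fold, was the narrowest of the members. Relative to library totals alone the sign turned, at -0.20, where the median of all genes was -0.21.

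Egln3 (ENSMUSG00000035105) encodes PHD3, the prolyl hydroxylase known for its strong induction in hypoxia. The estimated counts were 435, 510 and 298 in overexpression tumours 1, 2 and 3, against 242, 177 and 253 in controls 1, 2 and 3. On the scaled level this was 124, 107 and 68.5 CPM in overexpression tumours, against 52.3, 40.0 and 54.4 CPM in controls. Every overexpression tumour was above every control, tumour 3 by the least, and the same held for the unscaled counts and for CPM by library totals alone (91.2, 110 and 69.7 in overexpression tumours, against 57.1, 42.5 and 59.4 in controls). With TMM scaling, groups that did not overlap in this direction were found in 6.79% of all genes tested, and in 2 of the 8 members, Egln3 and Vhl. In the opposite direction this was so in 6.36% of all genes and in 0 members.

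The fold change of Egln3 was 2.04, with a 95% interval from 1.36 to 3.06, or 1.03 on the log2 scale with a standard error of 0.25. Its unadjusted p of 0.0038 ranked 44 among the 12637 genes tested, and its log2 fold change was higher than that of 98.0% of them. Adjusted over all genes the p was 0.70 in edgeR, so Egln3 did not pass the threshold. With DESeq2 on the same genes the log2 fold change was 1.04 and the adjusted p 0.14. Leaving out each library in turn gave log2 fold changes from 0.81, without overexpression tumour 1, to 1.24, without overexpression tumour 3, and all stayed positive. Of the members, Egln3 was the only one at or above a 2-fold difference, which 2.30% of all genes tested reached in this direction.

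**Figure D2:**
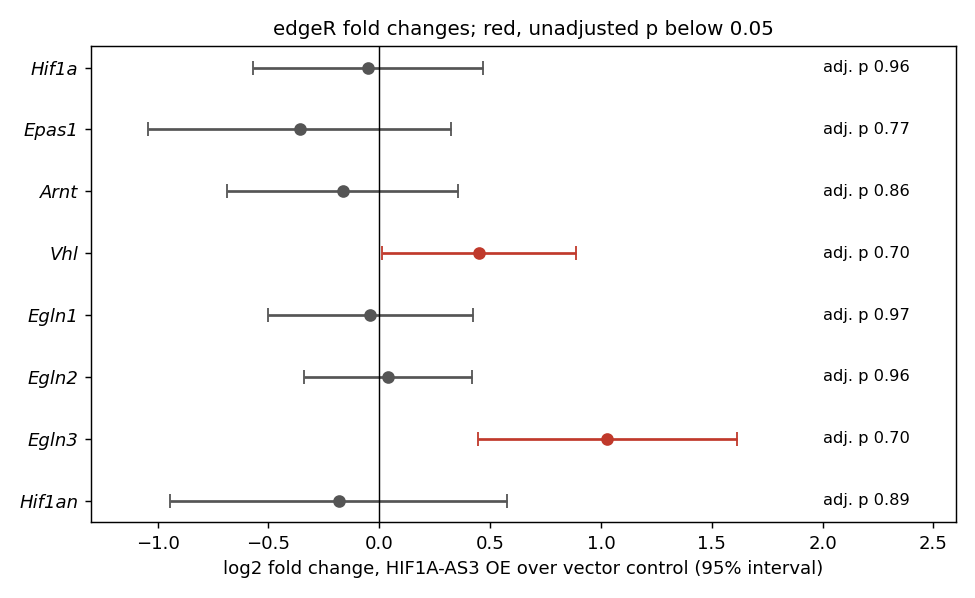
Log2 fold change of each tested gene, HIF1A-AS3 overexpression over vector control, with its 95% interval from the edgeR fit and the p adjusted over all genes tested (right). The intervals of Egln3 (0.44 to 1.61) and Vhl (0.013 to 0.89) lie above 0 before adjustment, and no adjusted p is below 0.05.

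Hif1an (ENSMUSG00000036450) encodes factor inhibiting HIF. It measured 21.9, 44.0 and 20.2 CPM in overexpression tumours 1, 2 and 3, against 34.8, 25.6 and 37.8 CPM in controls 1, 2 and 3. Overexpression tumours 1 and 3 lay below every control and tumour 2 above every control. The log2 fold change was -0.18, its standard error of 0.33 was the largest of the members, and the edgeR adjusted p was 0.89. It was -0.63 without overexpression tumour 2 (edgeR adjusted p 0.19) and -0.33 without control 2, but -0.057 without overexpression tumour 1, -0.064 without control 3 and 0.0091 without overexpression tumour 3.

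Epas1, Arnt and Hif1an thus shared an order in which overexpression tumours 1 and 3 lay below all controls and tumour 2 did not. This order was noticed in the values, and it was found in 14.1% of all genes tested and in 3 of the 8 members. No member passed the adjusted threshold in the fit without overexpression tumour 2, which called 14 genes (0.108%). In that fit 2659 of 12999 genes tested had an unadjusted edgeR p below 0.05, against 795 of 12637 with all libraries. Lower p-values in it were thus found across the table.

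**Figure D3:**
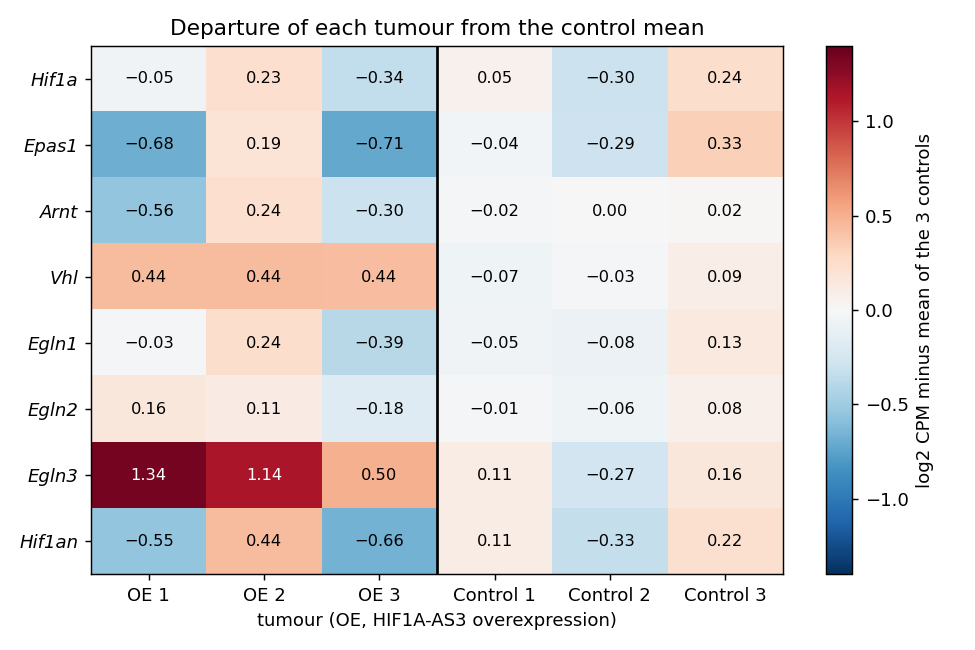
Log2 CPM of each tested gene in each tumour minus the mean of the 3 controls (red higher, blue lower), with overexpression tumours left of the line and controls right of it. Epas1, Arnt and Hif1an are low in overexpression tumours 1 and 3, between -0.71 and -0.30, and above the control mean in tumour 2, while Egln3 is high in all 3 overexpression tumours, from 0.50 to 1.34.

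The profiles of the alpha subunits over the 6 libraries were set against those of the other tested members, as the root mean square difference of log2 CPM after each gene was centred on its own mean. Hif1a was nearest to Egln1, at 0.11, and then to Egln2, at 0.16. Epas1 was nearest to Hif1an, at 0.12, and then to Arnt, at 0.23. The genes of low spread lie near each other by this measure whatever their order.

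The SD of log2 CPM was larger in overexpression tumours than in controls for 76.4% of all genes tested and for 7 of the 8 members, a share near that background. For Hif1a the SDs were close, at 0.29 in overexpression tumours and 0.27 in controls, and for Vhl the SD was smaller in overexpression tumours. It was largest for Hif1an, at 0.61 in overexpression tumours and 0.29 in controls. For Epas1 it was 0.52 in overexpression tumours and 0.31 in controls. Over all genes tested the median SD was 0.37 in overexpression tumours and 0.20 in controls.

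**Figure D4:**
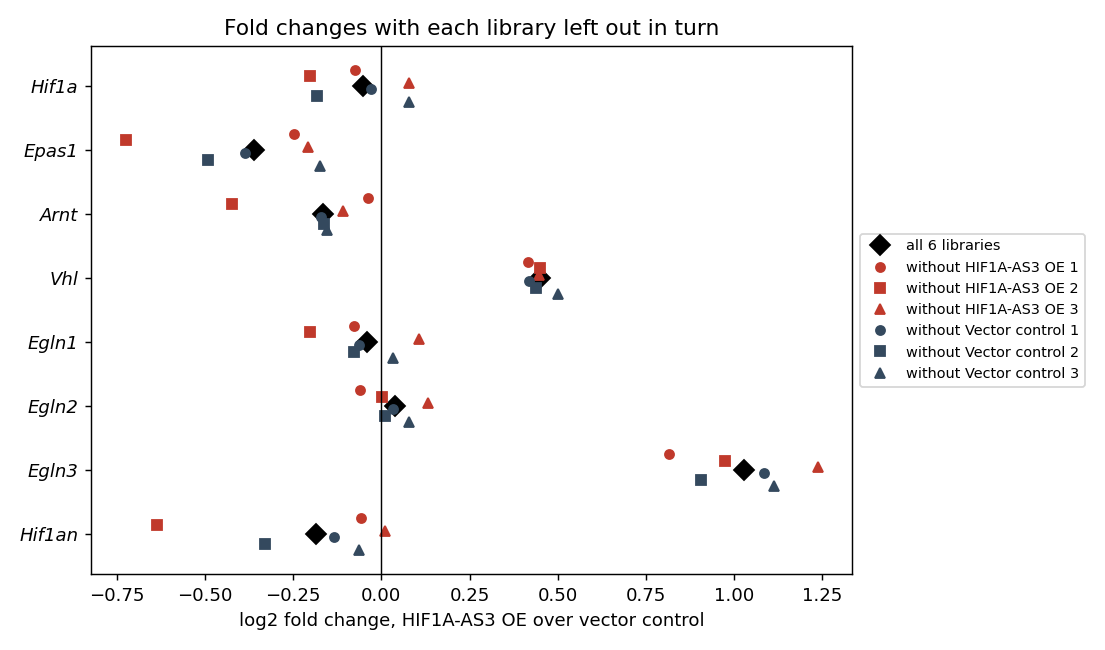
Log2 fold change of each tested gene, HIF1A-AS3 overexpression over vector control, with all 6 libraries (black diamond) and without each library in turn (red, an overexpression tumour left out; dark, a control left out). Egln3 (0.81 to 1.24) and Vhl (0.42 to 0.50) stay above 0, and Arnt (-0.42 to -0.038) stays below 0. Hif1an (-0.63 to 0.0091) and Epas1 (-0.72 to -0.17) move most.

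Ratios of counts between members within a library do not depend on how libraries are scaled. They are given as a description, with no test, and since the genes differ in length they compare tumours and not the genes with each other. The ratio of Egln3 to Egln1 was 1.34, 0.966 and 0.958 in overexpression tumours 1, 2 and 3, against 0.576, 0.450 and 0.527 in controls 1, 2 and 3. Every overexpression tumour thus lay above every control, and the mean log2 ratio was higher by 1.06, or 2.08-fold. The ratio of Egln2 to Egln1 was 0.941 ± 0.120 in overexpression tumours and 0.878 ± 0.0303 in controls (SD, n = 3 each), and the groups overlapped.

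The ratio of Epas1 to Hif1a was 0.226, 0.342 and 0.270 in overexpression tumours 1, 2 and 3, against 0.329, 0.353 and 0.374 in controls 1, 2 and 3. Overexpression tumours 1 and 3 again lay below all controls, and tumour 2 lay within the control range. The ratio of Arnt to Hif1a was 0.203 ± 0.0405 in overexpression tumours and 0.226 ± 0.0428 in controls (SD, n = 3 each), a difference smaller than the spread of either group.

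**Figure D5:**
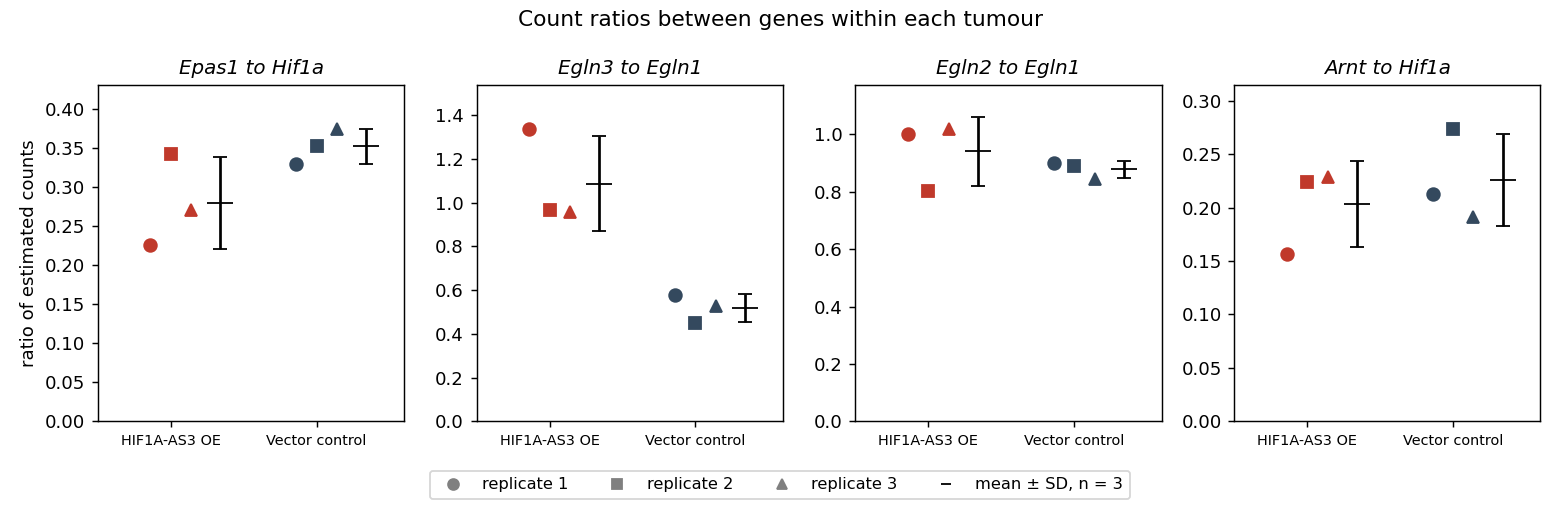
Ratio of estimated counts between pairs of genes within each tumour (linear axes from 0), HIF1A-AS3 overexpression left and vector control right, 1 point per tumour with the mean and SD of 3 tumours. The groups lie apart for Egln3 to Egln1, with overexpression tumours from 0.958 to 1.34 and controls from 0.450 to 0.576, and overlap for the other ratios.

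The estimates of some members included reads shared with other transcripts. An estimated count that is not whole (to within 0.0005) arises where reads are divided between genes. Arnt had such values in all 6 libraries and Hif1a in 5 of them, Epas1 and Egln2 in 1 library each, and Hif3a, Vhl, Egln1, Egln3 and Hif1an in 0. Of all genes tested, 78.5% had a non-whole value in at least 1 library. The levels of Arnt and Hif1a are uncertain to the extent that this division is.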

How the data were processed

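RNA of 6 xenograft tumours was sequenced, 1 library per tumour, per the labels' protocols. The authors deposited estimated counts per gene without normalization, per the file headers. The submitters' processing notes name edgeR, DESeq2, Trimmomatic 0.39, HISAT2 2.2.1 and featureCounts 2.0.6 beside the build mm10, with no role or order; the table's name points to salmon. Members and lists were chosen with earlier results of these data known.

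Estimated counts were rounded and analysed in R 4.3.3 with edgeR 4.0.16: filterByExpr at its defaults, TMM, robust quasi-likelihood F-test on group, Benjamini-Hochberg over all genes tested. The standard error is the log2 fold change over the square root of F. Log2 CPM used a prior count of 2. The fit was tested on simulated data. Alternatives covered DESeq2 1.42.0, limma-voom 3.58.1, scaling, filter, a block by replicate number and leaving out each library. Same-numbered tumours correlated at -0.088, -0.34 and -0.10 in their deviations from the group mean across genes. Tumours of unlike number correlated at -0.16 to 0.25. Deviations within so small a group depend on each other, so these values cannot decide whether tumours were paired. Numbers were not treated as pairs in the main fit.

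No row matched the human gene tables used here, and no mouse annotation was used. The 15 further lists drawn up by symbol (pathway partners, targets, cell type markers, RNA quality), levels per gene length and mouse sequences were therefore not analysed here. The rule for named genes took all members, the genes of those lists with the smallest p, and for alpha subunits the nearest profiles among genes with a symbol, here members only. All 6 value columns were matched to a tumour by name.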

Additional observations from a re-analysis of the deposited data

How the results depend on the processing

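No member was called in any of the 13 alternatives, and the lowest adjusted p, 0.14, was that of Egln3 with DESeq2; its unadjusted p was below 0.05 in all 13, and its log2 fold change ran from 0.77 with library totals to 1.24. Vhl was positive in all 13, with an unadjusted p below 0.05 in 3, not among them the replicate block (log2 fold change 0.45, unadjusted p 0.14). The number of genes called, 2, was 28 with DESeq2 and 7 with limma-voom on the same genes, 14 without a filter, 4 with library totals, and 0 with the replicate block in edgeR (where 414 genes had an unadjusted p below 0.05); leaving out 1 library gave 0 to 14. Signs turned for Egln2, Hif1a, Egln1 and Hif1an (the cause was not tested). Egln2 was -0.20 with library totals and ran from -0.059 to 0.13 with 1 library left out. With 1 library left out, Hif1a ran from -0.20 to 0.079, Egln1 from -0.20 to 0.11 and Hif1an from -0.63 to 0.0091. Epas1 ran from -0.72 to -0.17 and Arnt from -0.42 to -0.038. The difference in log2 ratio of Egln3 to Egln1 ran from 0.90 to 1.14 with 1 library left out, and that of Arnt to Hif1a from -0.27 to 0.022. The replicate block (0.45 for Vhl, 1.00 for Egln3) changed no call of a member. Alternatives for the lists by symbol and for gene length were not run. The unadjusted 95% interval of a member reached 1.43-fold to either side of its fold change in the median, against 1.57-fold over all genes tested.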
